A study of Mus musculus with 13 samples.

Results

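Whole aortas of mice given atorvastatin alone were set against aortas of mice given the Western diet alone, gene by gene, in 8 of the 13 RNA-seq libraries of a study of auranofin and atorvastatin in atherosclerosis. Libraries were taken by their treatment label, which gave 3 atorvastatin libraries (atorvastatin 1, 2 and 3) and 5 Western diet libraries (WD 1 to WD 5). All animals were ApoE-/- mice, which lack apolipoprotein E and develop plaques on a fatty diet, and every group ate the Western diet for 16 weeks from 6 weeks of age. The atorvastatin diet carried 10 mg/kg/day of the drug, and the WD diet carried none. The other 5 libraries, 2 from mice given auranofin plus atorvastatin (combination) and 3 from mice given auranofin at 3 mg/kg/day, served as a second setting of the same contrast. No unmanipulated strain or chow diet was analysed here. The labels do not say which mouse a library came from, nor whether it held 1 aorta, so p-values measure the spread between these libraries. Of 56953 genes in the count table, 18055 had enough reads to be tested.

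Atorvastatin, a statin, blocks an early step of the mevalonate pathway, from which cells make cholesterol and the isoprenoid tails that anchor small GTPases to membranes. When sterols in the endoplasmic reticulum are low, SCAP escorts the transcription factor SREBP2 to the Golgi for cleavage, and SREBP2 then raises transcription of nearly every enzyme of cholesterol synthesis. In cultured endothelium, statins are also known to raise KLF2 and its targets thrombomodulin and endothelial nitric oxide synthase. The aortic wall holds smooth muscle, fibroblasts, endothelium and, in plaques, macrophages, with nerve, fat and blood around it.

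The libraries held 22232290 to 23766975 counts in atorvastatin aortas and 22219720 to 26079566 counts in WD aortas. Transcripts of the mitochondrial genome took 16.1% ± 4.54 of counts in atorvastatin aortas (SD, n = 3) and 18.7% ± 7.29 in WD aortas (SD, n = 5), a difference that an exact two-sided permutation test put at p = 0.607, where the smallest p this design allows is 0.0179. WD 2 and WD 5 stood apart from the other WD libraries, with mitochondrial shares of 26.9% and 24.2% and with TMM scaling factors of 0.639 and 0.801, against factors of 1.00 to 1.23 in the other 6 libraries. Results that rest on WD 2, WD 5 or atorvastatin 2 are given with and without them for many genes and lists, but not for all. A result given with all libraries alone may still rest on them. Smooth muscle genes marked the tissue in every library: Acta2, smooth muscle actin, was at 8174 to 11542 CPM (counts relative to library size, scaled by TMM) in atorvastatin aortas and 8788 to 22512 CPM in WD aortas. Apoe reads were still counted, at 6.96 to 13.9 CPM in atorvastatin aortas and 6.21 to 17.5 CPM in WD aortas, and counts per gene do not show whether they come from outside the deleted part. The Y-linked helicase gene Ddx3y was at 72.8 to 106 CPM in atorvastatin aortas and at 37.9 to 87.0 CPM in WD aortas, while the labels used here give no sex. The X-linked Xist had 7, 9 and 7 counts in atorvastatin 1 to 3, against 7, 3, 3, 6 and 1 counts in WD 1 to WD 5.

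No gene passed an adjusted p of 0.05 between atorvastatin and WD aortas in the edgeR quasi-likelihood test with Benjamini-Hochberg adjustment, which called 0% of genes, and the smallest adjusted p was 0.340. At an unadjusted p under 0.05, 2648 genes differed, of which 756 were higher with atorvastatin (4.19% of those tested) and 1892 were lower (10.5%). DESeq2 and limma voom also called 0 genes after adjustment, with 3227 and 3706 genes at an unadjusted p under 0.05, and limma voom split its genes into 1741 higher and 1965 lower. All atorvastatin values lay above all WD values for 511 genes (2.83%) and below them for 518 genes (2.87%). Without atorvastatin 2, the genes at an unadjusted p under 0.05 numbered 322 higher (1.79%) and 338 lower (1.88%). Without WD 2 and WD 5 they numbered 210 higher (1.18%) and 145 lower (0.811%). The differences below are therefore described by their values and by their unadjusted p, since none of them passed the adjusted threshold. Of 73 genes described, many of them chosen for a small p, 55 had an unadjusted p under 0.05. Of the 55, 35 also had one without atorvastatin 2 and 35 without WD 2 and WD 5. The direction held for all 55 in both settings. Both settings reuse libraries by which many of these genes were chosen, so these counts are description and not support.

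Fold changes between atorvastatin and WD aortas went with the length of the transcripts. In the shortest of 5 equal groups of genes by exonic length, of up to 1775 bases, the median log2 fold change was -0.63, and 971 genes were lower and 62 higher at an unadjusted p under 0.05. In the longest group, of 6899 bases or more, the median log2 fold change was 0.34, with 47 genes lower and 373 higher. The medians of the groups between them were -0.28, -0.03 and 0.18, in order of length, and Spearman's rank correlation between log2 fold change and length over 17732 genes was 0.52. The libraries differed in the same property. Relative to the mean of all 13 libraries, short genes (about 1021 bases) stood against long ones (about 9189 bases) by -0.81, -0.52 and -0.09 log2 units in atorvastatin 1, 2 and 3, against 0.04, 1.37, -0.24, -0.17 and 0.77 in WD 1 to WD 5. WD 2 and WD 5 were thus rich in short transcripts, and atorvastatin 1 and 2 poor in them. Without WD 2 and WD 5, the median of the shortest group was -0.19 and that of the longest 0.18, with a rank correlation of 0.40. The part that RNA quality or library preparation has in this trend was not tested, and no measure of RNA integrity was used here.

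**Figure D1:**
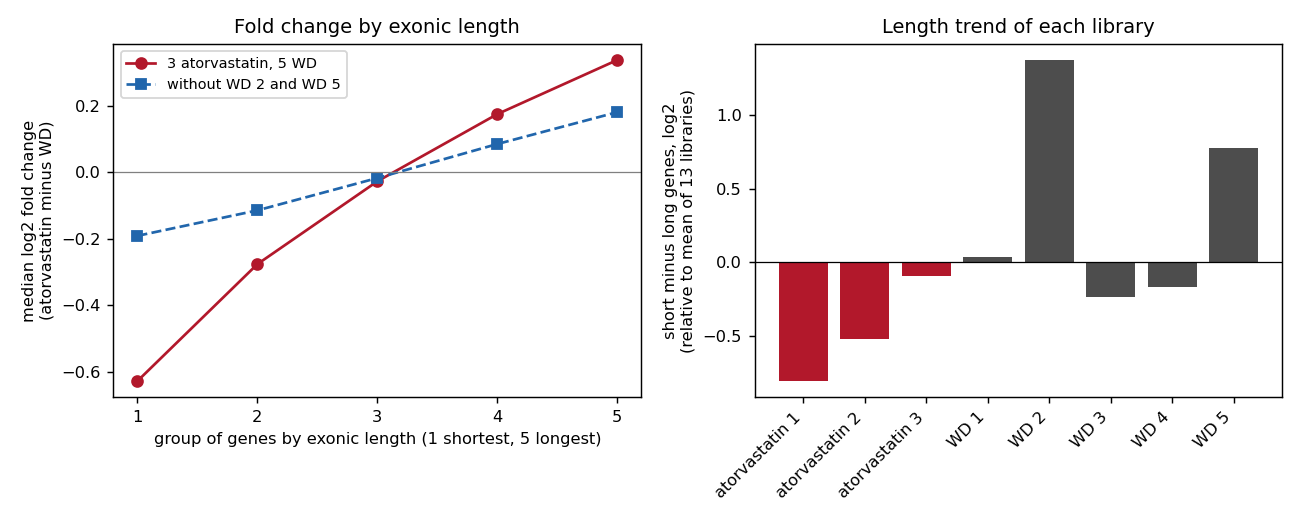
Left, median log2 fold change (atorvastatin minus WD) of genes in 5 equal groups by exonic length, from the shortest (1) to the longest (5), with all 8 libraries (circles) and without WD 2 and WD 5 (squares). Right, log2 difference between short and long genes in each library relative to the mean of 13 libraries, atorvastatin in red and WD in grey; WD 2 (1.37) and WD 5 (0.77) lie highest and atorvastatin 1 (-0.81) lowest.

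Genes of sterol synthesis and LDL uptake were mostly a little higher with atorvastatin. Of 34 tested members, 24 were higher and 10 lower, with a median log2 fold change of 0.20, where all genes tested had a median of -0.01 with 8892 higher and 9163 lower. Of the 34 members, 5 were higher at an unadjusted p under 0.05, among them Cyp51, Idi1 and Hmgcs1, and 3 were lower (Ebp, Mvk and Tmem97). At that threshold 4.19% of all genes tested were higher and 10.5% lower. Without atorvastatin 2, 3 sterol genes were higher and 1 lower at it, and without WD 2 and WD 5, 1 was higher and 0 lower. The shares of all genes were then 1.79% higher and 1.88% lower, and 1.18% higher and 0.811% lower, in that order. The median of the sterol genes was 0.14 without atorvastatin 2, 0.13 without WD 2 and WD 5, where 27 members were higher and 7 lower, and 0.11 after the length trend was removed. By branch, the median was -0.21 for 9 enzymes of the mevalonate pathway up to squalene, 0.38 for 11 enzymes from squalene to cholesterol, and 0.20 for 14 genes of SREBP control and LDL uptake. The mevalonate median was -0.13 without atorvastatin 2 and turned to 0.09 without WD 2 and WD 5, and the squalene to cholesterol median was 0.20 without WD 2 and WD 5.

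Hmgcs1, Idi1 and Cyp51 encode HMG-CoA synthase, isopentenyl diphosphate isomerase and lanosterol demethylase, and their proximal promoters are shown because these 3 genes were higher with atorvastatin at an unadjusted p under 0.05. Each runs 5′ to 3′ on the strand of the gene, from 250 bases before to 50 bases after the RefSeq start site (build GRCm38.p6). Hmgcs1 lies at chr13:119690101-119690400 (+), Idi1 at chr13:8885356-8885655 (+) and Cyp51 at chr5:4104648-4104947 (-). Capitals mark matches to the sterol regulatory element TCACNCCAC or to the CCAAT box, on either strand.
Hmgcs1: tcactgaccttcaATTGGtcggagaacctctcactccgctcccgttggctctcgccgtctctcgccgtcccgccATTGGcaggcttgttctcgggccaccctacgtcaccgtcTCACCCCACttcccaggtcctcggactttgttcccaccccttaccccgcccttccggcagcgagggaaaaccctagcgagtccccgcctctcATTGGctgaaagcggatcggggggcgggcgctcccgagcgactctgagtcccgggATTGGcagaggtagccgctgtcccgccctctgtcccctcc
Idi1: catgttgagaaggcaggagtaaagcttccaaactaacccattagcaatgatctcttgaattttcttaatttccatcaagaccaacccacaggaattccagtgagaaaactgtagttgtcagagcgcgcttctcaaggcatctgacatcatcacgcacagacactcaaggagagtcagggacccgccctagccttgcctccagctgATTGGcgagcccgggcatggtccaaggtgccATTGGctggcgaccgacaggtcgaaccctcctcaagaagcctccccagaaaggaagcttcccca
Cyp51: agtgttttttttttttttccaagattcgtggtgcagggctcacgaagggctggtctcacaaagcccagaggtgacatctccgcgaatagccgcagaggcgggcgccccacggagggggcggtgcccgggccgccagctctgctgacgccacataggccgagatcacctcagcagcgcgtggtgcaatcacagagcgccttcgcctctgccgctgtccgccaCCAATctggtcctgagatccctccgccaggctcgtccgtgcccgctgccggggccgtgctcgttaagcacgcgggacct
The Hmgcs1 promoter held 1 match to TCACNCCAC and 4 to CCAAT, that of Idi1 held 2 CCAAT matches and that of Cyp51 held 1. Of 32851 RefSeq promoters of this length, 1.24% held TCACNCCAC and 37.4% held CCAAT. The RefSeq table had promoters for 25 of the 35 sterol genes listed, 33 promoters in all, and 1 of these held TCACNCCAC while 22 held CCAAT, at 21 of the 25 genes.

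Hmgcs1 was at 61.0, 75.7 and 57.6 CPM in atorvastatin 1 to 3, against 37.8, 16.9, 58.9, 41.8 and 33.6 CPM in WD 1 to WD 5. Idi1 was at 23.1, 24.8 and 27.6 CPM with atorvastatin, against 15.4, 11.6, 28.0, 14.8 and 11.8 CPM with WD. Cyp51 was at 24.6, 18.5 and 21.6 CPM with atorvastatin, against 15.6, 10.3, 20.6, 13.2 and 12.1 CPM with WD. In all 3 genes WD 3 was the WD library that reached the atorvastatin range, or passed it in Idi1, and the other 4 WD libraries lay below it. The log2 fold changes were 0.77 for Hmgcs1 (SE 0.34, unadjusted p 0.0386), 0.62 for Idi1 (SE 0.26, unadjusted p 0.0320) and 0.58 for Cyp51 (SE 0.23, unadjusted p 0.0225). Without WD 2 and WD 5 they were 0.50, 0.39 and 0.41, with unadjusted p above 0.05 for each. Without atorvastatin 2 they were 0.65, 0.64 and 0.69, with an unadjusted p of 0.120 for Hmgcs1, 0.0576 for Idi1 and 0.0216 for Cyp51. With the length trend removed they were 0.71, 0.67 and 0.54. Sqle, squalene epoxidase, was at 19.9, 15.8 and 20.2 CPM with atorvastatin, against 14.6, 12.4, 18.7, 10.1 and 12.6 CPM with WD, a log2 fold change of 0.44 (SE 0.24). Insig1, which retains SCAP in the endoplasmic reticulum, was at 38.6, 55.5 and 78.0 CPM with atorvastatin, against 22.8, 24.4, 82.0, 27.1 and 31.2 CPM with WD, a log2 fold change of 0.61 (SE 0.45). WD 3 was again the WD library that overlapped the atorvastatin aortas in both genes.

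Other sterol genes stood lower with atorvastatin, 3 of 34 at an unadjusted p under 0.05. That share is no higher than the 10.5% of all genes tested. Ebp, sterol isomerase, was at 14.6, 18.8 and 20.5 CPM in atorvastatin 1 to 3, against 27.5, 60.1, 19, 24.1 and 38.9 CPM in WD 1 to WD 5, with the highest values in WD 2 and WD 5. Mvk, mevalonate kinase, was at 6.88, 9.38 and 11.1 CPM with atorvastatin, against 12.3, 21.7, 11.8, 8.18 and 22.5 CPM with WD, again highest in WD 2 and WD 5. Tmem97, a sterol-regulated membrane protein, was at 6.77, 7.67 and 7.98 CPM with atorvastatin, against 9.48, 23.9, 7.03, 8.55 and 16.9 CPM with WD, with the same pair of WD libraries highest. The log2 fold changes were -0.91 for Ebp (SE 0.34), -0.74 for Mvk (SE 0.33) and -0.81 for Tmem97 (SE 0.36). Without WD 2 and WD 5 these were -0.37, -0.22 and -0.14. Without atorvastatin 2 they were -0.95, -0.77 and -0.84, and the unadjusted p stayed under 0.05 for Ebp (0.0423) but not for Mvk (0.0821) or Tmem97 (0.0874).

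**Figure D2:**
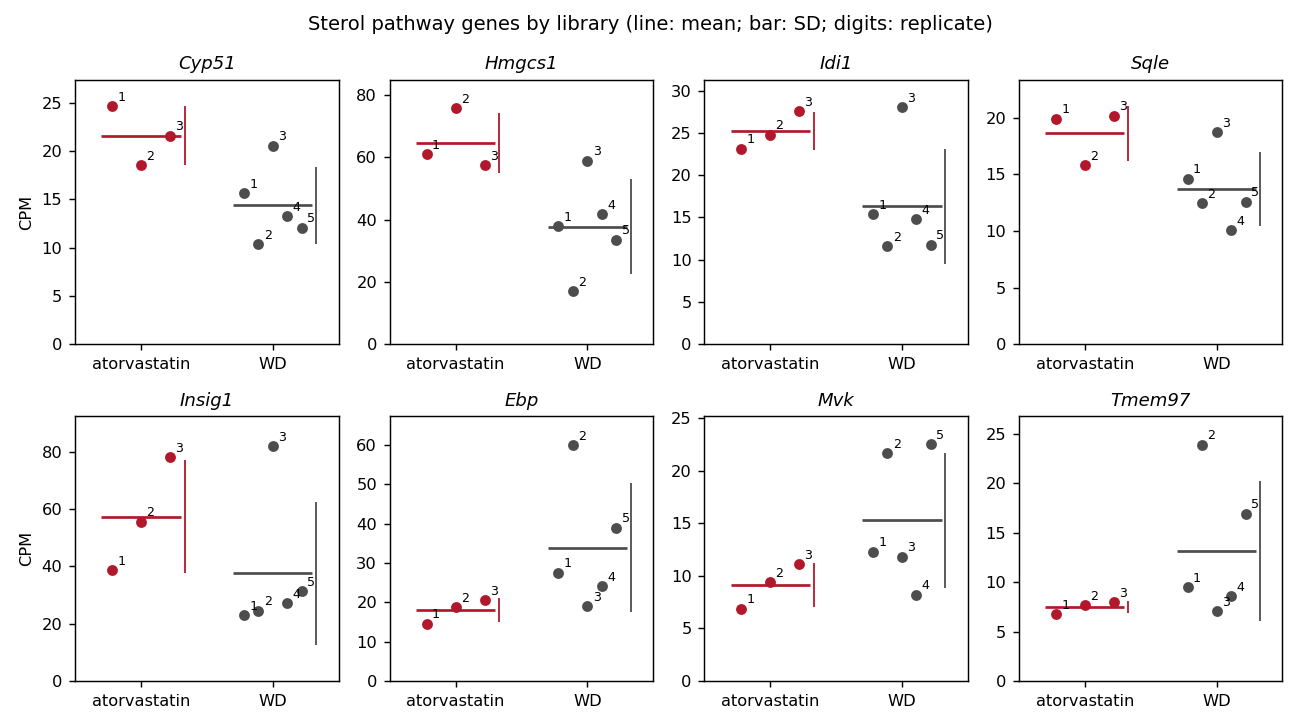
TMM-scaled CPM of 8 sterol genes in each atorvastatin library (red, n = 3) and each WD library (grey, n = 5), with the mean (line) and SD (bar); digits give the replicate. WD 3 lies within the atorvastatin range for Cyp51, Hmgcs1 and Sqle and just above it for Idi1 and Insig1, and WD 2 and WD 5 are highest for Ebp, Mvk and Tmem97.

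Genes of fatty acid and triglyceride synthesis were higher with atorvastatin in 18 of 19 members, with a median of 0.49, but none reached an unadjusted p under 0.05. The median was 0.38 without atorvastatin 2 and 0.32 without WD 2 and WD 5. Fasn, fatty acid synthase, was at 650, 1505 and 1194 CPM in atorvastatin 1 to 3, against 148, 113, 1464, 514 and 487 CPM in WD 1 to WD 5. WD 3 was nearly as high as atorvastatin 2, so the groups overlapped, and the log2 fold change of 1.03 (SE 0.70) had an unadjusted p of 0.166. Markers of brown fat moved with this list: their summed level was 435, 723 and 767 CPM in atorvastatin 1 to 3, against 153, 269, 991, 419 and 623 CPM in WD 1 to WD 5. The part of adherent fat in the lipogenic values was not tested. Ppara, a nuclear receptor of fatty acid oxidation, was at 7.37, 6.08 and 2.02 CPM with atorvastatin, against 0.501, 1.32, 2.08, 1.75 and 1.06 CPM with WD. Atorvastatin 3 lay within the WD range, and the log2 fold change was 1.93 (SE 0.57, unadjusted p 0.00508). Ppargc1a, a coactivator of mitochondrial biogenesis, was at 6.96, 10.1 and 6.97 CPM with atorvastatin, against 2.47, 1.86, 6.58, 4.75 and 3.55 CPM with WD. Its groups did not overlap, with a log2 fold change of 1.05 (SE 0.52, unadjusted p 0.0619).

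Genes of cholesterol efflux, isoprenoid use and the endothelial statin response showed little separation, with 1 gene of these lists at an unadjusted p under 0.05. The 13 LXR target and efflux genes tested had a median of -0.12, with 5 higher and 8 lower. Without atorvastatin 2 that median was -0.37, with 1 higher and 12 lower. Abca1, the efflux pump, was at 133, 225 and 90.1 CPM in atorvastatin 1 to 3, against 180, 144, 86.4, 211 and 37.8 CPM in WD 1 to WD 5. Of 23 small GTPase and prenylation genes, 1 was lower at an unadjusted p under 0.05 and the median was -0.06, which was -0.11 with the length trend removed. That gene, Rhoc, which encodes a small GTPase of the cytoskeleton, was at 150, 144 and 190 CPM with atorvastatin, against 248, 519, 173, 182 and 344 CPM with WD, and its log2 fold change was -0.86 (SE 0.35) with all libraries and -0.30 without WD 2 and WD 5. Rhob, a short-lived small GTPase, had a log2 fold change of -0.03 (SE 0.21), which was 0.23 with the length trend removed.

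The 12 genes of the endothelial KLF2 axis had a median of 0.05, and none reached an unadjusted p under 0.05. The median was 0.09 without atorvastatin 2 and turned to -0.04 without WD 2 and WD 5. Klf2 was at 69.4, 83.1 and 138 CPM in atorvastatin 1 to 3, against 141, 112, 84.1, 76.6 and 90.3 CPM in WD 1 to WD 5, a log2 fold change of -0.06 (SE 0.42), which was 0.27 with the length trend removed. Nos3, endothelial nitric oxide synthase, was at 19, 21.4 and 28.8 CPM with atorvastatin, against 19.6, 19, 19.5, 31.5 and 18.6 CPM with WD, a log2 fold change of 0.09 (SE 0.34). The groups overlapped throughout for both genes. Thbd, thrombomodulin, had a log2 fold change of 0.32 (SE 0.36) and of -0.03 without WD 2 and WD 5. At these standard errors, a modest difference in either direction was not detectable with 3 atorvastatin and 5 WD libraries.

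Among the genes with the smallest p whose groups did not overlap, the 12 that were higher with atorvastatin included Dbh, Nhsl2, Spen, Dusp16, Sipa1l3, Rai1, Arid5b, Wnt2b, Zfp592, Rab6b and Arid1b. Their separation was part of the rule that chose them, so it is description and not support. Spen, a transcriptional corepressor, was at 56.5, 39.7 and 27.5 CPM in atorvastatin 1 to 3, against 18, 8.11, 26.6, 21.8 and 16.2 CPM in WD 1 to WD 5, a log2 fold change of 1.18 (SE 0.33). Arid5b, a DNA-binding cofactor of histone demethylation, was at 224, 117 and 94.5 CPM with atorvastatin, against 85.1, 30.6, 73.0, 70.2 and 51.5 CPM with WD, a log2 fold change of 1.22 (SE 0.37). In both genes atorvastatin 1 was highest and WD 2 lowest, the same libraries that lay at the ends of the length trend. Dusp16, a phosphatase of JNK and p38 kinases, was at 32.4, 20.8 and 21.0 CPM with atorvastatin, against 15.0, 12.6, 16.5, 17.8 and 12.9 CPM with WD, a log2 fold change of 0.73 (SE 0.20). Wnt2b, a Wnt ligand, was at 3.67, 4.14 and 2.44 CPM with atorvastatin, against 1.54, 0.781, 2.25, 2.12 and 1.22 CPM with WD, a log2 fold change of 1.10 (SE 0.34). The remaining genes named in this direction, Dbh aside, had log2 fold changes between 0.52 (Zfp592) and 1.02 (Sipa1l3). The largest by size also included Zfp609, at 1.12 (SE 0.36). The median of the 12 was 0.96, and it was 0.94 without atorvastatin 2, 0.69 without WD 2 and WD 5, and 0.71 with the length trend removed. Their median exonic length was 8694 bases, against 3775 for all genes tested.

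The 12 genes that were lower with atorvastatin by the same rule were Tango2, Apod, Bdh2, Tmem222, Gins4, Faap24, Znhit2, Tesc, Spryd4, Dcxr, Serinc2 and Olfml3. Apod, apolipoprotein D, which adventitial fibroblasts express, was at 34.7, 47.4 and 46.8 CPM in atorvastatin 1 to 3, against 57.1, 106, 54.7, 80.6 and 92.9 CPM in WD 1 to WD 5, a log2 fold change of -0.86 (SE 0.25). Tango2, a protein whose loss disturbs Golgi and lipid handling, was at 9.72, 10.8 and 10.7 CPM with atorvastatin, against 15.2, 23.4, 13.1, 15.7 and 18.3 CPM with WD, a log2 fold change of -0.72 (SE 0.19). Bdh2, a cytosolic hydroxybutyrate dehydrogenase, was at 2.08, 2.58 and 3.48 CPM with atorvastatin, against 5.98, 12.1, 3.92, 4.68 and 6.59 CPM with WD, a log2 fold change of -1.29 (SE 0.38). WD 2 was the highest library for all 3 genes. Dcxr, a sugar reductase, was at 5.67, 6.99 and 7.73 CPM with atorvastatin, against 11.2, 41.9, 9.15, 8.84 and 30.2 CPM with WD. Its log2 fold change of -1.57 (SE 0.50) became -0.50 without WD 2 and WD 5, which were its highest libraries. The other 8 genes had log2 fold changes between -1.53 (Znhit2) and -0.75 (Gins4). By size the rule added Tma7-ps, a processed pseudogene at -1.46 whose reads may be split with its parent gene, and Myoz2, a sarcomeric protein of heart and slow muscle, at -1.34. The median of the 12 was -0.89, and it was -0.93 without atorvastatin 2, -0.53 without WD 2 and WD 5 and -0.73 with the length trend removed. Their median exonic length was 1984 bases.

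**Figure D3:**
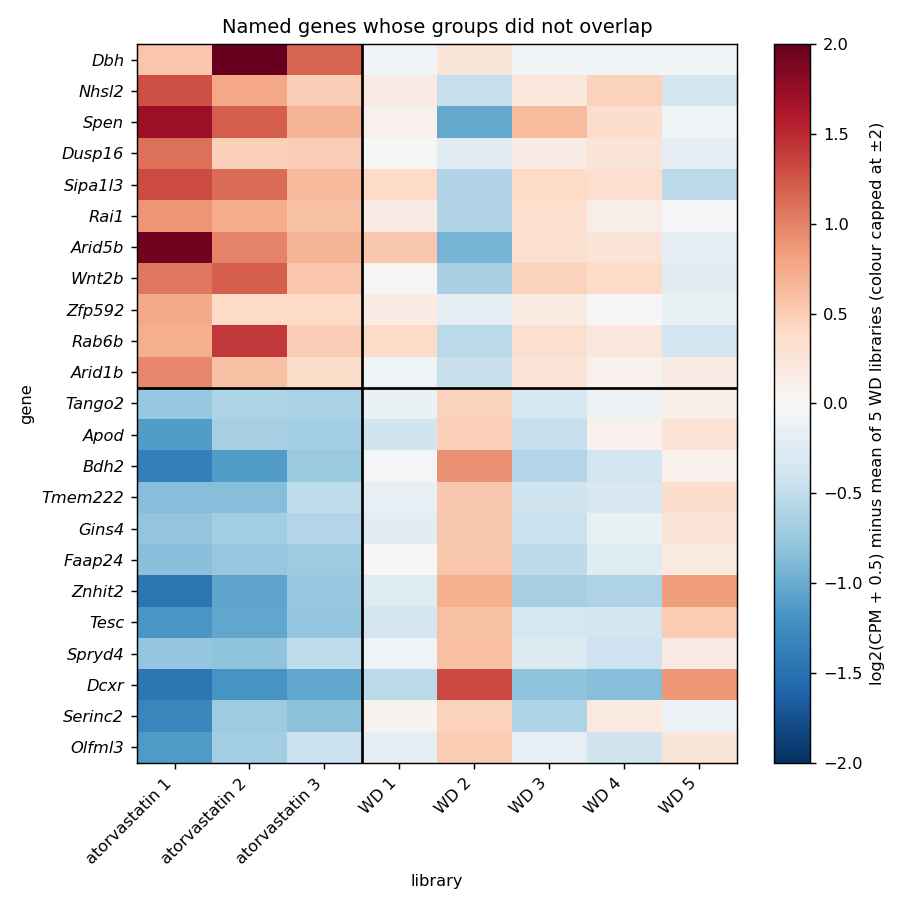
Colour gives log2(CPM + 0.5) minus the mean of the 5 WD libraries for the named genes whose groups did not overlap, with atorvastatin libraries left of WD libraries and genes higher with atorvastatin above genes lower with it. Colours are deepest in atorvastatin 1 and, with the opposite sign, in WD 2, and the very high Dbh of 33.8 CPM is in atorvastatin 2 alone.

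Chromatin and transcription regulators with long coding sequences were higher with atorvastatin in 19 of 20 members, with a median of 0.54. Of the 19, 10 were at an unadjusted p under 0.05. Over all genes tested, 4.19% were higher at that threshold. The 10 members were 8 without atorvastatin 2, 6 without WD 2 and WD 5, and 3 with the length trend removed. Kmt2d, a histone H3 lysine methyltransferase, was at 93.5, 69.9 and 38.2 CPM in atorvastatin 1 to 3, against 30.0, 9.91, 36.1, 40.0 and 20.2 CPM in WD 1 to WD 5, a log2 fold change of 1.30 (SE 0.39). Atorvastatin 3 lay within the WD range. Arid1a, a subunit of the BAF remodelling complex, had a log2 fold change of 0.53 (SE 0.19). Length was part of the definition of this list, and the median was 13934 exonic bases. The median log2 fold change of the list was 0.53 without atorvastatin 2 and 0.40 without WD 2 and WD 5. It was 0.12 with the length trend removed, where 12 were higher and 8 lower.

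All 34 cytosolic ribosomal protein genes were lower with atorvastatin, 32 of them at an unadjusted p under 0.05, with a median of -1.38. For this list and the 2 below, the share of all genes tested that were lower at that threshold was 10.5%. Rps14, of the small ribosomal subunit, was at 166, 173 and 261 CPM in atorvastatin 1 to 3, against 331, 1384, 234, 277 and 761 CPM in WD 1 to WD 5. WD 2 and WD 5 held the high values, and the other 3 WD libraries lay close to or within the atorvastatin range. The median was -1.27 without atorvastatin 2, with 0 members at an unadjusted p under 0.05, and -0.34 without WD 2 and WD 5, also with 0 such members. With the length trend removed it was -0.91, with 22 of 34 still at an unadjusted p under 0.05. Ribosomal protein genes have many near-identical pseudogenes, so the split of their reads is uncertain. Nuclear genes of oxidative phosphorylation were lower in 25 of 28 members (7 at an unadjusted p under 0.05), with a median of -0.81, which was -0.12 without WD 2 and WD 5 and -0.26 with the length trend removed. Selenoproteins, thioredoxins and peroxiredoxins were lower in 20 of 24 members (11 at an unadjusted p under 0.05), with a median of -0.74, which was -0.20 without WD 2 and WD 5 and -0.39 with the length trend removed. Without atorvastatin 2 the medians of these 2 lists were -0.80 and -0.74, with 0 members of either at an unadjusted p under 0.05. Prdx2, a peroxide-reducing enzyme, was at 59.4, 67.5 and 88.0 CPM with atorvastatin, against 105, 249, 88.4, 87.0 and 176 CPM with WD.

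The 16 clock genes tested had no common direction, with 7 higher and 9 lower and a median of -0.04, which was 0.06 with 11 higher without WD 2 and WD 5. Their summed level was 716, 576 and 523 CPM in atorvastatin 1 to 3, against 453, 816, 793, 500 and 1061 CPM in WD 1 to WD 5. A pair of output genes among them was high in WD 2 and WD 5. Dbp, a transcription factor whose level swings widely over the day, was at 21.6, 14.2 and 16.5 CPM in atorvastatin 1 to 3, against 12.7, 212, 55.7, 14.4 and 180 CPM in WD 1 to WD 5. Ciart, a repressor within the clock, was at 1.70, 1.52 and 1.6 CPM with atorvastatin, against 0.716, 24.5, 3.35, 1.53 and 19 CPM with WD. WD 2 and WD 5 were the highest libraries for both genes, and WD 1 and WD 4 lay near or below the atorvastatin values. The log2 fold change of Dbp was -2.45 (SE 0.93, unadjusted p 0.0211), and -0.65 without WD 2 and WD 5. The hour of dissection is not given in the labels, and its part in these values was not tested. Per1, a light-responsive repressor of the clock, did not overlap between groups, at 36.8, 50.1 and 43.2 CPM with atorvastatin, against 27.7, 15.4, 30.9, 31.3 and 33.2 CPM with WD, and its log2 fold change of 0.64 (SE 0.27) was 0.55 without WD 2 and WD 5.

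Macrophage genes were lower with atorvastatin in 16 of 18 members, with a median of -0.78, and none of the 16 reached an unadjusted p under 0.05. In bulk tissue, fewer macrophages and less RNA per macrophage cannot be told apart. Cd68, a lysosomal protein of macrophages, was at 69.1, 146 and 47.2 CPM in atorvastatin 1 to 3, against 209, 350, 18.5, 174 and 25.5 CPM in WD 1 to WD 5. The WD aortas lay on both sides of the atorvastatin aortas, 3 above all of them and 2 below all of them. The summed level of the 18 genes was 1692, 3507 and 1215 CPM with atorvastatin, against 5057, 7544, 596, 3640 and 966 CPM with WD, the same division. The median was -1.22 without atorvastatin 2, -0.57 without WD 2 and WD 5, and -0.46 with the length trend removed. The median exonic length of these genes was 1734 bases, against 3775 for all genes tested. Mertk, a receptor for the uptake of dying cells, was the one member at an unadjusted p under 0.05 and it was higher, at 116, 79.0 and 62.7 CPM with atorvastatin, against 58.8, 36.6, 69.0, 58.7 and 52.4 CPM with WD (log2 fold change 0.64, SE 0.28). Without atorvastatin 2, and without WD 2 and WD 5, 0 macrophage genes reached that threshold.

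Other immune lists did not all lean the same way. Chemokines and cytokines were lower in 19 of 21 members (median -0.87) and MHC class II genes in 9 of 11 (median -0.84). These medians were -1.11 and -1.11 without atorvastatin 2, and -0.44 and -0.48 without WD 2 and WD 5. With the length trend removed they were -0.36 and -0.50, and the median exonic lengths were 1875 and 2568 bases. B cell and plasma cell genes were higher in 10 of 14 members, with a median of 0.54, which was 1.21 without WD 2 and WD 5, and none reached an unadjusted p under 0.05. Their summed level was not higher, at 146, 134 and 198 CPM in atorvastatin 1 to 3. In WD 1 to WD 5 it was 168, 264, 138, 170 and 198 CPM. The members are low, with a median CPM of 0.548, 0.835 and 2.71 in atorvastatin 1 to 3, against 0.626, 0.691, 0.715, 0.566 and 1.45 in WD 1 to WD 5. Leukocyte adhesion molecules were higher in 7 of 12 members, with a median of 0.14, which turned to -0.08 without atorvastatin 2 and -0.09 without WD 2 and WD 5. T cell genes were lower in 9 of 14 members (median -0.44, and -0.27 without WD 2 and WD 5). Neutrophil genes were lower in 7 of 8 members (median -0.86), which turned to 0.10 without WD 2 and WD 5. Ccl8, a monocyte chemoattractant, was at 5.37, 10.3 and 7.35 CPM in atorvastatin 1 to 3, against 28.6, 57.8, 4.13, 26.0 and 10.6 CPM in WD 1 to WD 5 (log2 fold change -1.72, SE 0.75, unadjusted p 0.0391). WD 3 lay below all atorvastatin aortas. Spp1, osteopontin, which foamy macrophages make in quantity, was at 924, 2273 and 448 CPM with atorvastatin, against 2571, 2787, 134, 2099 and 131 CPM with WD. Vcam1, an adhesion molecule for leukocytes, was at 371, 541 and 249 CPM with atorvastatin, against 774, 296, 117, 464 and 115 CPM with WD, a log2 fold change of 0.13 (SE 0.54).

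Resident adventitial macrophage genes were lower in 11 of 12 members, 4 of them at an unadjusted p under 0.05, with a median of -0.37, which was -0.56 without atorvastatin 2. Over all genes tested, 10.5% were lower at that threshold. The 4 members were 3 without atorvastatin 2 and 1 without WD 2 and WD 5, where 1.88% and 0.811% of all genes were lower. Timd4, a phosphatidylserine receptor of resident macrophages, was at 0.718, 1.18 and 1.13 CPM in atorvastatin 1 to 3, against 2.00, 2.52, 1.35, 2.89 and 1.27 CPM in WD 1 to WD 5. The groups did not overlap, though by little, and the log2 fold change of -0.99 (SE 0.38) was -1.11 without atorvastatin 2 and -1.02 without WD 2 and WD 5. Pf4, a chemokine of platelets and resident macrophages, was at 4.95, 6.80 and 9.57 CPM with atorvastatin, against 11.6, 45.4, 8.66, 16.1 and 27.9 CPM with WD, a log2 fold change of -1.62 (SE 0.52). WD 3 reached into the atorvastatin range, and the log2 fold change was -0.75 without WD 2 and WD 5. Lyve1, a hyaluronan receptor of these macrophages and of lymphatic vessels, had a log2 fold change of -0.55 (SE 0.34).

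Collagen genes leaned the other way. All 17 were higher with atorvastatin, with a median of 0.45, and Col5a3 was the one at an unadjusted p under 0.05. Over all genes tested, 4.19% were higher at that threshold. Without atorvastatin 2, and without WD 2 and WD 5, 0 collagen genes reached that threshold. Col1a1, the main chain of type I collagen, was at 1323, 1478 and 961 CPM in atorvastatin 1 to 3, against 1067, 1082, 931, 1028 and 833 CPM in WD 1 to WD 5, a log2 fold change of 0.34 (SE 0.24). Atorvastatin 3 lay within the WD range. The collagen median was 0.39 without atorvastatin 2 and 0.26 without WD 2 and WD 5, with 17 of 17 still higher in both. It was 0.23 with the length trend removed, where 13 were higher and 4 lower. The median collagen length was 7464 exonic bases. Of 20 genes of elastic fibres, glycoproteins and crosslinking, 15 were higher and 5 lower, with a median of 0.23. At an unadjusted p under 0.05, 0 of the 20 were higher and 2 lower, against 10.5% of all genes lower. Their median was 0.06 without WD 2 and WD 5. With the length trend removed it was 0.02, with 10 higher and 10 lower. Fn1, fibronectin, was at 4446, 4176 and 2068 CPM with atorvastatin, against 2683, 1441, 2417, 2001 and 1260 CPM with WD, a log2 fold change of 0.86 (SE 0.40, unadjusted p 0.0522). Timp3, a matrix-bound inhibitor of metalloproteinases, had a log2 fold change of 1.53 (SE 0.65, unadjusted p 0.0349), and of 0.98 without WD 2 and WD 5. Fibroblast genes of the adventitia stood lower, in 11 of 15 members, with a median of -0.38. Pi16, a marker of adventitial progenitor fibroblasts, was at 133, 180 and 194 CPM with atorvastatin, against 250, 263, 212, 309 and 336 CPM with WD. Its groups did not overlap, with a log2 fold change of -0.70 (SE 0.28), and of -0.59 without WD 2 and WD 5.

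The contractile genes of smooth muscle had a median of -0.16 over 16 members, with 7 higher and 9 lower. It was -0.06 without atorvastatin 2, with 8 higher and 8 lower, and -0.05 without WD 2 and WD 5. Myocd, myocardin, the coactivator that drives the contractile programme, was at 63.7, 15.3 and 15.0 CPM in atorvastatin 1 to 3, against 10.4, 3.48, 12.8, 10.7 and 4.97 CPM in WD 1 to WD 5. The groups did not overlap, but atorvastatin 1 stood far above the other atorvastatin aortas, and the log2 fold change was 1.88 (SE 0.64, unadjusted p 0.0122). Fhl2, a LIM-domain cofactor of heart and vessel, was at 7.37, 6.95 and 11 CPM with atorvastatin, against 20.9, 23.6, 10.7, 25.2 and 16.6 CPM with WD. WD 3 overlapped atorvastatin 3, and the log2 fold change of -1.20 (SE 0.31, unadjusted p 0.00196) was -1.08 without atorvastatin 2 and -1.14 without WD 2 and WD 5.

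**Figure D4:**
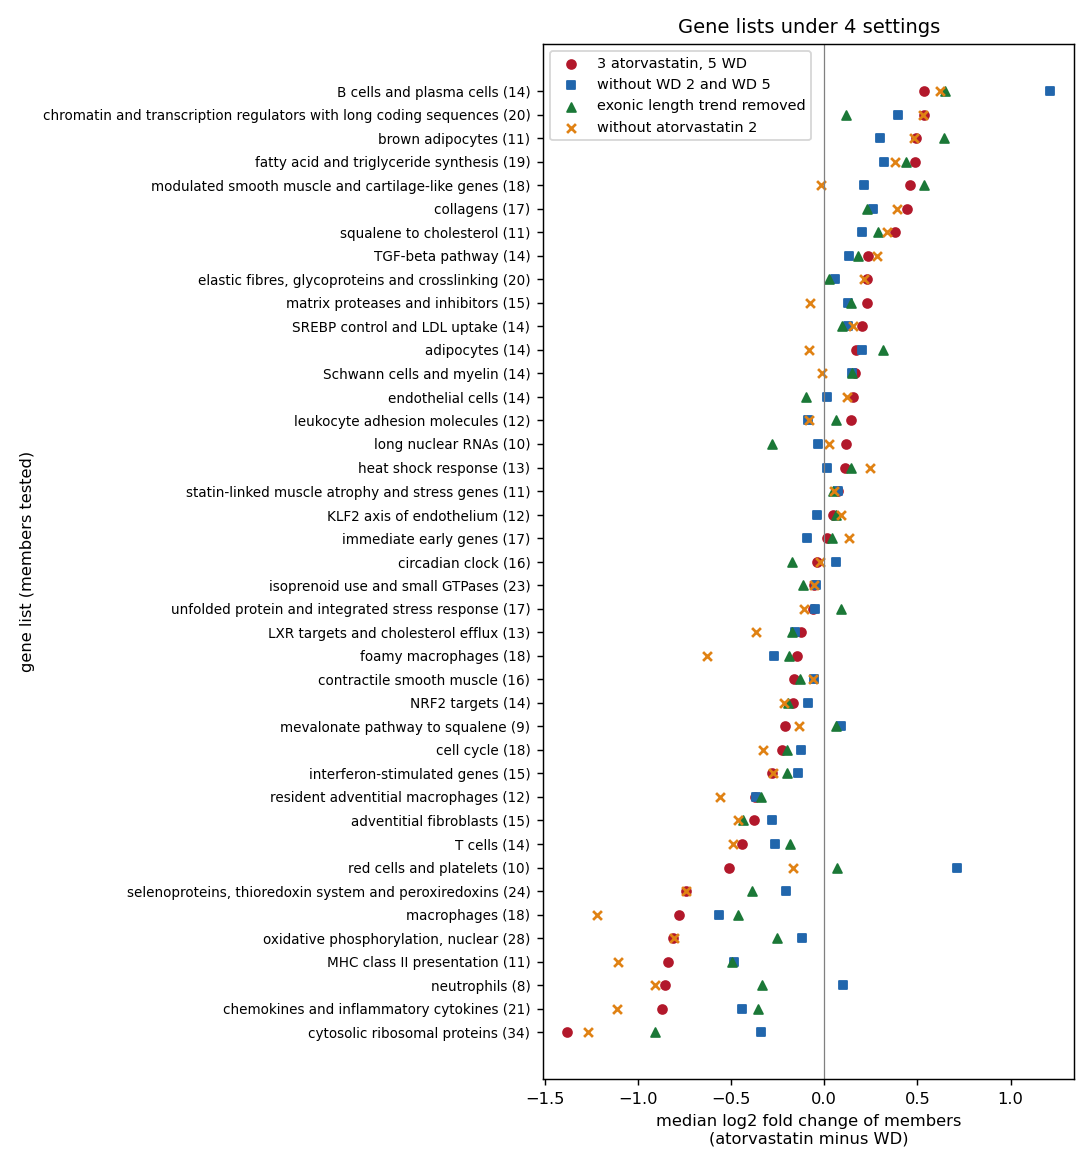
Median log2 fold change (atorvastatin minus WD) of the tested members of 41 gene lists (number tested in brackets), with all libraries, without WD 2 and WD 5, with the length trend removed and without atorvastatin 2. Ribosomal protein genes lie at -1.38 with all libraries and at -0.34 without WD 2 and WD 5, while collagens lie at 0.45 and 0.26.

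Sympathetic neuron genes were read at a high level in atorvastatin 2 alone. Dbh, dopamine beta-hydroxylase, which makes noradrenaline, had 7, 890 and 16 counts in atorvastatin 1 to 3, against 0, 2, 0, 0 and 0 counts in WD 1 to WD 5. It had the smallest p of the named genes, 0.000271, in the edgeR quasi-likelihood test, with a Benjamini-Hochberg adjusted p of 0.340. Th, tyrosine hydroxylase, was at 0.189, 17.9 and 0.504 CPM with atorvastatin, against 0.0716, 0.300, 0.0409, 0.0365 and 0 CPM with WD. Slc6a2, the noradrenaline transporter, was at 1.85, 40.6 and 3.02 CPM with atorvastatin, against 1.79, 1.38, 2.25, 1.61 and 1.67 CPM with WD. For all 3 genes atorvastatin 2 was far above every other library of both groups. Phox2a, a transcription factor that defines these neurons, had 0, 25 and 0 counts in atorvastatin 1 to 3 and 0 counts in every WD library. The 13 tested members of the list had a median of 2.65, with 9 higher at an unadjusted p under 0.05, and without atorvastatin 2 the median was 0.21 with 1 such member. Over all genes tested, 4.19% were higher at that threshold, and 1.79% without atorvastatin 2. Ngfr, the neurotrophin receptor of neurons and Schwann cells, was at 0.794, 14.5 and 0.966 CPM with atorvastatin, against 0.465, 0.300, 0.531, 0.365 and 0.203 CPM with WD. The median of the 14 Schwann cell and myelin genes was 0.17 with all libraries and -0.01 without atorvastatin 2. With no filter on low counts, the edgeR quasi-likelihood test called 2 genes, Dbh and the granule protein gene Scg2, each at a Benjamini-Hochberg adjusted p of 0.0407, and Scg2 had 4, 177 and 6 counts in atorvastatin 1 to 3, against 0, 0, 1, 1 and 0 in WD 1 to WD 5.

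Heart and skeletal muscle genes stood apart in single WD aortas. Myh6, the atrial and ventricular myosin heavy chain of mouse heart, was at 0.832, 1.63 and 1.13 CPM in atorvastatin 1 to 3, against 96.5, 0.300, 0.0817, 162 and 0.101 CPM in WD 1 to WD 5. WD 1 and WD 4 held nearly all of the WD signal, and the other 3 WD aortas lay below the atorvastatin aortas. Of 13 heart genes tested, 12 were lower with atorvastatin, 8 at an unadjusted p under 0.05, where 10.5% of all genes tested were lower. The 8 were 1 without atorvastatin 2, where 1.88% of all genes were lower. The summed level of the heart genes was 58.8, 41.0 and 44.5 CPM with atorvastatin, against 453, 35.0, 44.1, 615 and 49.4 CPM with WD. Myh4, a fast skeletal myosin, was at 0, 0 and 0.462 CPM with atorvastatin, against 0, 0.180, 31.3, 0.0365 and 5.83 CPM with WD, high in WD 3 and WD 5. The amount of heart or chest muscle left on an aorta is not given in the labels, and its part in other genes was not tested.

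**Figure D5:**
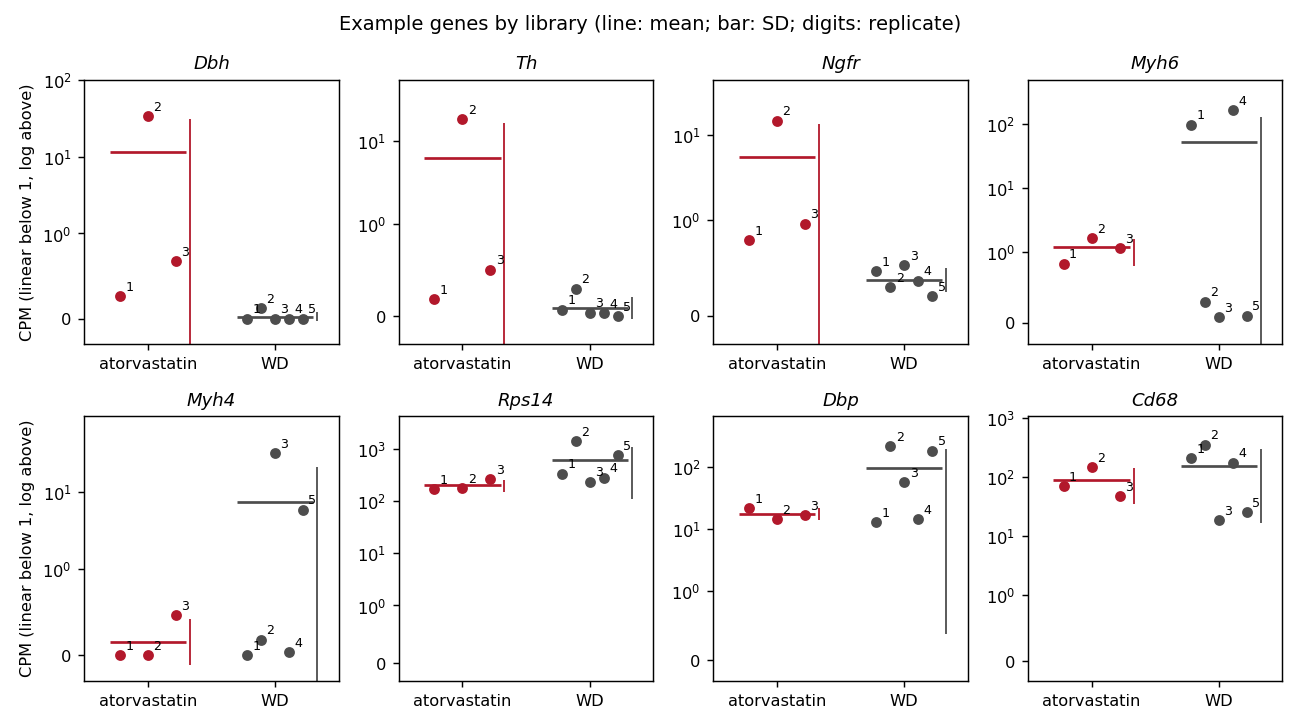
TMM-scaled CPM of 8 genes in each atorvastatin library (red, n = 3) and each WD library (grey, n = 5) on an axis that is linear below 1 and logarithmic above, with the mean (line) and SD (bar). Dbh, Th and Ngfr are high in atorvastatin 2, Myh6 in WD 1 and WD 4, Myh4 in WD 3 and WD 5, and Rps14 and Dbp in WD 2 and WD 5.

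The same drug was given on top of auranofin, and the combination and auranofin libraries share no library with the comparison above. Auranofin 2 stood apart there, with a mitochondrial share of 38.8%, a TMM factor of 0.629 and a summed level of B cell and plasma cell genes of 1663 CPM, against 134 to 264 CPM in the other 12 libraries. Combination 2 stood apart by heart genes, with a summed level of 1701 CPM, against 56.3 CPM in combination 1 and 25.4 to 42.1 CPM in auranofin aortas. No gene passed an adjusted p of 0.05 between combination and auranofin aortas in the edgeR quasi-likelihood test (0% called), and 191 genes were higher (1.06%) and 166 lower (0.919%) at an unadjusted p under 0.05. The 34 sterol genes had a median of 0.07 in this setting, with 21 higher and 13 lower, and 0 higher at an unadjusted p under 0.05. Hmgcs1 was at 41.5 and 89.3 CPM in combination aortas, against 59.2, 78.7 and 51.4 CPM in auranofin aortas, which overlapped, with a log2 fold change of 0.05 (SE 0.43). The values for Idi1 and Cyp51 there were -0.08 (SE 0.33) and -0.01 (SE 0.29). All 17 collagens were higher there too, with a median of 0.54. Their summed level was 9765 and 8443 CPM in combination aortas, against 5824, 3864 and 8187 CPM in auranofin aortas, with auranofin 2 lowest and auranofin 3 close to combination 2. Without auranofin 2 the median was 0.34, with 17 of 17 higher, and without auranofin 3 it was 0.87. Without combination 1 it was 0.53, with 17 of 17 higher, and without combination 2 it was 0.64, with 16 higher and 1 lower. Other lists moved there too. Contractile smooth muscle genes were higher in 15 of 16 members, and those of elastic fibres, glycoproteins and crosslinking in 17 of 20. Endothelial genes were lower in 12 of 14, and B cell and plasma cell genes in 14 of 14. Col1a1 was at 1044 and 966 CPM in combination aortas, against 485, 540 and 785 CPM in auranofin aortas. Its log2 fold change was 0.74 (SE 0.30, unadjusted p 0.0296), and 0.66 without auranofin 2, with an unadjusted p of 0.0663.

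Most of the named genes were not repeated in that setting. Of the 12 named as higher with atorvastatin alone, 7 were higher in the combination aortas, with a median of 0.11, and of the 12 named as lower, 9 were higher, with a median of 0.16. Macrophage genes had a median of 0.13 and chromatin regulators one of -0.03. The difference between the 2 atorvastatin effects passed an adjusted p of 0.05 for 0 genes (0%) in the edgeR quasi-likelihood test, and 559 genes (3.1%) had an unadjusted p under 0.05. Spearman's rank correlation of log2 fold change with exonic length was 0.11 there. Fhl2 was at 10.4 and 20.9 CPM in combination aortas, against 7.93, 8.50 and 8.23 CPM in auranofin aortas, and the difference between its effects was 2.13 (SE 0.48), with an unadjusted p of 0.000662 and a Benjamini-Hochberg adjusted p of 0.791 from edgeR. That difference contains the atorvastatin and WD values by which Fhl2 was named. In combination 2, where Fhl2 was highest, Myh6 was at 625 CPM, against 7.95 CPM in combination 1 and 0.0745 to 1.05 CPM in auranofin aortas.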

How the data were processed

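RNA from whole aortas was sequenced from poly-A, non-stranded libraries, per the labels' protocols, so reads of a gene and of an overlapping antisense gene cannot be told apart. The deposited values are raw counts per gene, 1 column per library. The submitters' processing notes name STAR 2.6.1d, featureCounts, Subread 1.6.3 and GRCm39, and filters or multimapping settings are not given in the sources used here. Counts were tested as deposited with edgeR 4.0.16 (R 4.3.3): low counts were filtered with filterByExpr, libraries scaled by TMM, and a quasi-likelihood model of 4 groups was fitted to 13 libraries, with Benjamini-Hochberg adjustment over 18055 genes and a threshold of 0.05. CPM are TMM-scaled and log2 fold changes come from that fit. The members and the 46 gene lists were chosen with earlier results of these data known.

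Genes were named by rule: per direction, the 12 of smallest p among genes above 1 on the mean log2 CPM scale whose groups did not overlap, the 6 of largest fold change with an unadjusted p under 0.01, a panel of 28 genes, and up to 4 members per list or any member of the sterol, small GTPase, KLF2, resident macrophage, neuron and Schwann lists. Some genes that the rule names are not reported here. Apoe, Myh6 and Scg2 fall outside this rule, and Myh6 and Scg2 were chosen after their values were seen. Alternatives were DESeq2 1.42.0, limma 3.58.1 voom with quality weights, other size factors and filters, the 2 groups alone, a replicate block, mitochondrial genes removed and each library left out. Leaving out WD 2 with WD 5, and removing each library's trend on exonic length (lowess span 0.4) were added after seeing the data. Exonic lengths were matched by gene ID to a GENCODE annotation of GRCm38, for 98.2% of tested genes, and promoters were taken from RefSeq on GRCm38.p6. The statistics were also run on simulated counts, drawn gene by gene without a length trend, adherent tissue or an outlying library. That run does not test how the statistics behave under those. No pair of libraries among 78 held identical counts. Each SE is the absolute log2 fold change divided by the square root of the quasi-likelihood F statistic. Values after ± are SDs between libraries, and depth differed little between groups.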

Additional observations from a re-analysis of the deposited data

Results flagged for a closer look

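In 7 of 73 genes described, 1 WD library lay far from the other 4, a distance that chance alone gives in about 1 of 20 groups, so several such genes would be found by chance. WD 3 was low for Apoe (6.21 CPM) and high for Idi1 (28.0 CPM), Insig1 (82.0 CPM) and Myh4 (31.3 CPM). WD 4 was high for Nos3 (31.5 CPM). WD 2 was highest for Dbh (0.120 CPM) and Th (0.300 CPM), at levels of a few counts.

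For Nhsl2 and Tango2, the groups separated one way with atorvastatin alone and the other way with atorvastatin on top of auranofin. Nhsl2 was higher in all atorvastatin than in all WD aortas and lower in both combination than in all auranofin aortas, and the difference between the log2 fold changes was -1.16 (SE 0.39). For Tango2 the directions were opposite to these, and the difference was 0.89 (SE 0.30). In the edgeR quasi-likelihood test the difference had an unadjusted p of 0.0103 for Nhsl2 and 0.0107 for Tango2, with a Benjamini-Hochberg adjusted p of 0.791 for both. Both genes were named for a small p and separated groups between atorvastatin and WD. The difference contains those same values, so its unadjusted p was favoured by that choice and is description only.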

How the results depend on the processing

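The count of genes past an adjusted p of 0.05 between atorvastatin and WD aortas was 0 under every alternative run but 1: with no filter on low counts it was 2, Dbh and Scg2, both read mainly in atorvastatin 2. The count at an unadjusted p under 0.05, 2648, was 1635 with the atorvastatin and WD libraries alone, 355 without both WD 2 and WD 5, 199 when atorvastatin 2 was left out as well, and 1672 with the length trend removed. With a single library left out it lay between 327 (atorvastatin 1 left out) and 4169 (WD 3 left out), with 660 for atorvastatin 2, 1136 for WD 2 and 1289 for WD 5. The count of genes whose groups did not overlap, 1029, ranged from 1146 to 5280 with a single library left out, with 5280 when atorvastatin 3 was left out, 3081 for WD 3 and 2021 for WD 4, and fewer libraries make overlap rarer. Under other size factors and filters it was 898 to 1286. The median of the sterol genes stayed between 0.11 and 0.27. Same-numbered atorvastatin and WD libraries correlated at 0.21, 0.02 and -0.07, within the -0.49 to 0.49 of the other pairs. These values cannot settle whether the numbers pair samples, and the labels do not state a pairing. With the replicate number as a block, 0 genes passed and 1368 had an unadjusted p under 0.05. Combination against auranofin called 3 genes by DESeq2 and 0 to 8 when 1 library was left out, with 8 without combination 1, and the difference between the atorvastatin effects called 11 genes by DESeq2. Heart genes are prominent among these calls: Myl4 (4587 counts), Nppa (3198) and Bmp10 (2542) were read mainly in combination 2, and the 11 include Myh6 and other heart sarcomere genes, high in WD 1, WD 4 and combination 2. Directions turned for some genes, whose log2 fold changes with all libraries lay between -0.35 (Spp1) and 0.32 (Thbd). Under limma voom these were Fdps (0.035), Spp1 (0.024) and Vcam1 (-0.052). Without WD 2 and WD 5 they were Abca1 (-0.070), Fdps (0.10), Nos3 (-0.012), Rhob (0.060), Thbd (-0.034) and Vcam1 (-0.20). With the length trend removed they were Abca1 (-0.17), Col3a1 (-0.10), Klf2 (0.27), Rhob (0.23), Spp1 (0.10) and Vcam1 (-0.17). With 1 library left out, the ranges that crossed 0 were -0.40 to 0.11 for Klf2, -0.12 to 0.030 for Rhob, -0.23 to 0.44 for Abca1, -0.18 to 0.63 for Vcam1, -0.10 to 0.25 for Nos3 and -1.16 to 0.050 for Spp1. The cause was not tested. With 3 atorvastatin libraries, small differences were beyond what this comparison could show.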
